A study of Mus with 6 samples.

Results

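Nuclear factor kB (NF-kB) and Toll-like receptor signaling was examined through 41 genes in chondrocytes, the cells of cartilage, with and without Sirt6. The genes were chosen by symbol: the receptors (Toll-like, Nod and NLR families), their adaptors (Myd88, Ticam, Tirap, Irak), the adaptors of tumor necrosis factor (TNF) receptors (Tradd, Traf, Ripk, Birc2 and Birc3), the CARD-Bcl10-Malt1 proteins, the kinases and their subunits (Ikbk, Chuk, Tbk1, Tank, Tab and Map3k), the transcription factors, their inhibitors, and the ubiquitin and RNA-decay regulators. The rule matched 113 symbols of the mouse annotation, of which 63 had a row among the 11659 rows of the table. Of these 63, 41 lay in the 6621 rows whose gene identifier and counts belong together, and all 41 passed the filter on low counts. Another 22 had rows in which the counts are shifted against the identifiers, so no value is given for them: Map3k14, Nfkbia, Traf3, Tnfaip2, Ripk1, Ripk3, Tab1, Sharpin, Nfkbie, Map3k8, Rela, Chuk, Nfkb2, Nlrc3, Bcl3, Tnfaip6, Tnip2, Irak4, Irak2, Tnfaip8, Tank and Nlrc5. The remaining 50, among them Tlr4, Relb, Traf1, Nod2, Tollip and Nlrp3, were not analysed here.

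RNA was sequenced from knee cartilage chondrocytes of C57BL/6J mice, 3 wild-type (WT) samples and 3 samples with a conditional Sirt6 knockout (Sirt6 cKO). The study took the RNA at 12 weeks of age. Its general methods name male mice and cultured first-passage chondrocytes for all experiments, but the part on this RNA does not repeat it. Its knockout joins floxed Sirt6 alleles with a tamoxifen-inducible Cre under the Col2a1 promoter, which is active in chondrocytes, so cells that do not use this promoter keep the gene. The labels call the controls wild type, which says nothing of a Cre or of floxed alleles in them, and when tamoxifen was given before this RNA was taken is not given in the sources used here. The study describes a course of daily tamoxifen injections for its adult mice, but does not tie it to these samples. The wording of the study can be read as a separate mouse per sample, but no label says that the samples came from separate animals or cultures. If they did not, the p-values measure only the spread between these samples, which may then be technical.

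In resting cells, NF-kB dimers such as those of Rela and Nfkb1 are held in the cytoplasm by inhibitors of the IkB family. Receptors for microbial products, interleukin-1 or TNF assemble adaptors and ubiquitin chains, which bring together the Tab and Map3k7 complex and the IkB kinases (Ikbkb, Chuk and Ikbkg); the inhibitor is then degraded and the dimer enters the nucleus. Target genes include chemokines and proteases that break down cartilage matrix, and also inhibitors such as Nfkbia and Tnfaip3 that end the signal. SIRT6 is a deacetylase of histones and has been described to bind Rela at the promoters of target genes.

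Total counts ranged from 25726958 to 30156935 per sample. Sirt6 had 10273, 9963 and 10943 counts in WT replicates 1 to 3 and 1056, 862 and 660 in Sirt6 cKO replicates 1 to 3. The targeted gene was therefore low in all 3 samples labelled as knockouts, with a log2 fold change of -3.69 (SE 0.21). WT replicate 1 stood apart from the other WT samples. Its log2 counts correlated with theirs at 0.969 and 0.971, against 0.993 between replicates 2 and 3, and with the genes in 4 equal groups by exon length, its shortest group was 0.21 higher and its longest group was lower, at -0.17 (median log2 difference from the other WT samples). The length groups also hold rows whose counts are shifted against the identifiers, where the exon length is not that of the gene counted. WT replicate 1 gave the lowest WT value for 16 of the 41 genes and the highest for 24, so values without it are given where they matter. The defining cartilage genes Col2a1 and Acan were not analysed here. Of 18 chondrocyte markers, 5 were analysed, with a summed normalized count of 5739 to 6257 in WT and 11300 to 14160 in Sirt6 cKO. Sox9 held most of the WT sum, whereas Comp (13.7 to 26.6 in WT) and Ucma (1.95 to 7.18 in WT) were close to 0 there. The 9 of 10 synovial fibroblast markers analysed summed to 295600 to 333100 in WT and 405800 to 463200 in Sirt6 cKO, and Vim and Col1a1 made up most of the WT sum.

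Against this background the pathway genes moved in both directions. A gene was called when its Benjamini-Hochberg adjusted p over all 11246 genes tested was under 0.05 in edgeR's quasi-likelihood test. In Sirt6 cKO chondrocytes 11 of the 41 genes (26.8%) rose, beside 22.5% of all genes tested, and 4 (9.76%) fell, beside 24.3% of all genes. The share that rose was thus near that of all genes, and the share that fell was below it. At a fold above 2, 4 genes were higher (Tlr3, Tlr2, Tnfaip3 and Tab2), beside 8.72% of all genes, and at a fold below 0.5, 3 were lower (Tnfaip8l1, Nfkbid and Nfkbiz), beside 7.15%. The set above a fold of 2 changed with single libraries and with the scaling. Tab2 left it without WT replicate 1 (0.97 on the log2 scale) or Sirt6 cKO replicate 3 (0.95), Ikbke entered it without Sirt6 cKO replicate 3 (1.01), and Traf5 entered it without WT replicate 1 or Sirt6 cKO replicate 1 (1.02 each), with upper-quartile normalization (1.05) and with total counts alone (1.03). The normalized counts of the genotypes did not overlap for 24 of the 41 (58.5%), which is near the 60.9% of all genes. The median log2 fold change was 0.11 over the 41 genes and 0.0021 over all genes tested. Over the 41 genes it was 0.17 without WT replicate 3 or without Sirt6 cKO replicate 2, 0.16 with total counts alone and 0.18 with upper-quartile normalization, where those of all genes were 0.052 and 0.079.

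**Figure D1:**
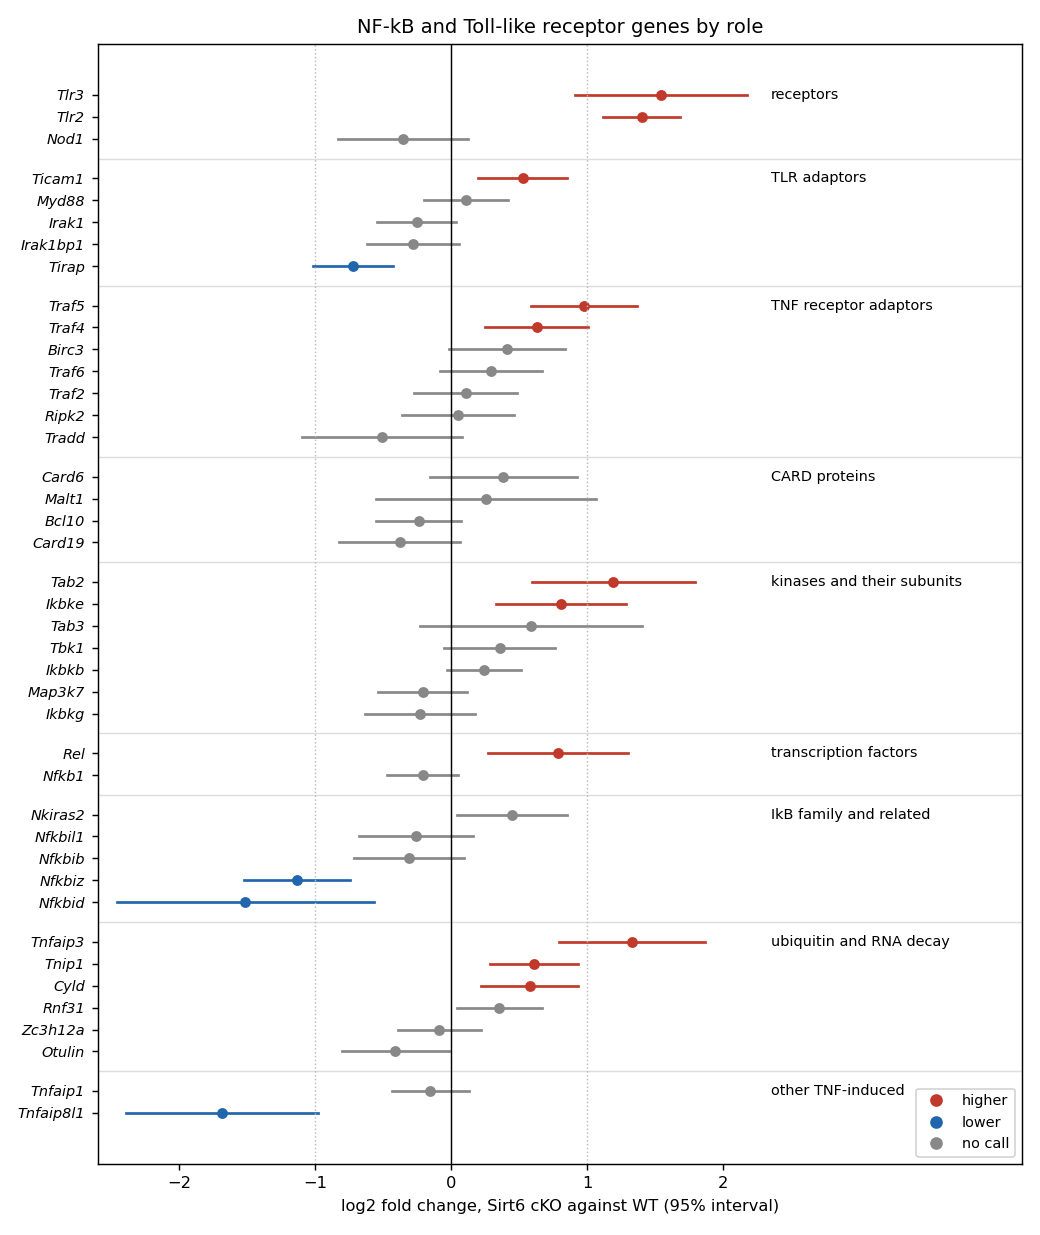
Log2 fold change (Sirt6 cKO against WT) of the 41 genes, grouped by role, with 95% intervals as lines and dotted lines at a fold of 2 and 0.5. Red and blue points are the 11 genes that rose and the 4 that fell at an adjusted p under 0.05, and grey points are the 26 genes with no call.

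Among the receptors, both Toll-like receptors rose (2 of 3, 66.7%, beside 22.5% of all genes) and Nod1 did not pass the test. Tlr3 (ENSMUSG00000031639, chromosome 8, 45395665 to 45410608, minus strand of GRCm38) encodes an endosomal receptor for double-stranded RNA. Its normalized counts, which are counts divided by the library's TMM-scaled size, were 103, 236 and 186 in WT replicates 1 to 3 and 489.9, 583 and 462 in Sirt6 cKO replicates 1 to 3. Every knockout sample lay above every WT sample, and WT replicate 1 was the lowest. The log2 fold change was 1.54 (SE 0.28, edgeR adjusted p = 0.00248), and 1.28 without WT replicate 1. Tlr2 (ENSMUSG00000027995, chromosome 3, 83836273 to 83841767, minus strand) encodes a cell-surface receptor for bacterial lipopeptides that also responds to fragments of cartilage matrix. It had 1148, 1244 and 1152 normalized counts in the WT samples and 3070, 2957 and 3330 in Sirt6 cKO. The samples of each genotype lay close together, with means of 1181 ± 54.2 and 3119 ± 191 (SD, n = 3), and the log2 fold change was 1.40 (SE 0.13, edgeR adjusted p = 6.8e-05). Nod1, a cytosolic sensor of bacterial cell wall fragments, had 562 ± 70.7 in WT and 439.5 ± 109 in Sirt6 cKO, with ranges that overlapped (log2 fold change -0.35, edgeR adjusted p = 0.193, and -0.15 without Sirt6 cKO replicate 3).

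Of the 5 adaptors of Toll-like and interleukin-1 receptors, Ticam1 rose, Tirap fell and 3 did not pass the test, so 20% were called in each direction, beside 22.5% and 24.3% of all genes. Ticam1 encodes TRIF, the adaptor that Tlr3 uses. It rose from 768, 623 and 616 normalized counts in WT to 999, 953 and 936 in Sirt6 cKO (log2 fold change 0.53, SE 0.14, edgeR adjusted p = 0.0165). The genotypes did not overlap, but the call was lost without WT replicate 2, WT replicate 3, Sirt6 cKO replicate 1 or Sirt6 cKO replicate 2. There the log2 fold change was 0.48 to 0.53, with adjusted p from 0.0522 to 0.0706. Tirap bridges Tlr2 to Myd88. It fell from 1518, 1644 and 1617 normalized counts in WT to 1008, 1015 and 869 in Sirt6 cKO (log2 fold change -0.72, SE 0.13, edgeR adjusted p = 0.00243). All 3 knockout samples lay below the WT samples. Tirap shares 39 exonic bases with a gene on the other strand, whose own log2 fold change was 0.02. Myd88, the adaptor of most Toll-like receptors and of the interleukin-1 receptor, had 1077 ± 108 normalized counts in the WT samples and 1161 ± 75.4 in Sirt6 cKO (SD, n = 3). Its log2 fold change was 0.11 with a 95% interval of -0.20 to 0.42 (edgeR adjusted p = 0.540), and it was 0.19 without WT replicate 1. Myd88 shares 290 exonic bases with Acaa1a on the other strand, whose log2 fold change was 0.66. The kinase Irak1, which Myd88 recruits, had a log2 fold change of -0.25 (-0.54 to 0.04, edgeR adjusted p = 0.136). Irak1bp1, an Irak1-binding protein gene, had one of -0.28 (edgeR adjusted p = 0.149).

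Of the 7 adaptors of TNF receptors, 2 rose (28.6%, near the 22.5% of all genes) and none fell in the test. Traf5, which joins TNF receptor family members to NF-kB, had 145, 128 and 137 normalized counts in the WT samples and 253, 272 and 281 in Sirt6 cKO. Its genotypes were well separated at a low level, with a log2 fold change of 0.98 (SE 0.17, edgeR adjusted p = 0.00223). Traf4, a family member with roles in development, had 2063, 1452 and 1498 in WT and 2565, 2373 and 2811 in Sirt6 cKO. Here too the ranges did not overlap, with WT replicate 1 nearest to the knockouts (log2 fold change 0.63, SE 0.17, edgeR adjusted p = 0.0145). Without WT replicate 3 the log2 fold change was 0.57 and the adjusted p was 0.0542. Traf2 and Traf6, the ubiquitin ligases of the TNF and interleukin-1 pathways, did not pass the test. Their log2 fold changes were 0.11 (-0.27 to 0.48) for Traf2 and 0.29 (-0.08 to 0.67) for Traf6, and without WT replicate 1 they were 0.27 and 0.14. Tradd, the first adaptor bound by the TNF receptor, had 2047, 1323 and 1146 normalized counts in the WT samples and 1185, 1240 and 744 in Sirt6 cKO. WT replicate 1 was far above the other WT samples, and the log2 fold change of -0.51 did not pass the test (edgeR adjusted p = 0.136). It did pass with the replicate number as a block (-0.50, adjusted p = 0.0284), and was -0.22 without WT replicate 1 and -0.30 without Sirt6 cKO replicate 3. Birc3 and Ripk2 had no call and overlapping ranges, except that Birc3 reached an adjusted p of 0.0494 without WT replicate 2.

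No gene of the CARD, Bcl10 and Malt1 group, which carries signals from other receptors to the IkB kinases, passed the test. Their log2 fold changes ran from -0.38 (Card19, -0.13 without WT replicate 1) to 0.38 (Card6, 0.17 without Sirt6 cKO replicate 2).

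Among the 7 kinases and kinase subunits, 2 rose (28.6%, near the 22.5% of all genes) and none fell. Tab2 (ENSMUSG00000015755, chromosome 10, 7905653 to 7956230, minus strand) encodes the subunit through which the Map3k7 complex binds ubiquitin chains. It had 2922, 5155 and 5216 normalized counts in the WT samples and 8861, 8106 and 13410 in Sirt6 cKO. The genotypes did not overlap, but both were spread, with WT replicate 1 low and Sirt6 cKO replicate 3 high. The log2 fold change was 1.19 (SE 0.26, edgeR adjusted p = 0.00639), and it was 0.97 without WT replicate 1 and 0.95 without Sirt6 cKO replicate 3. Ikbke, an IkB kinase-related enzyme that acts below Tlr3, had 355, 400.0 and 425 in WT and 702, 868 and 499 in Sirt6 cKO. The knockout samples were all higher yet far apart, and the log2 fold change of 0.81 (SE 0.21, edgeR adjusted p = 0.0135) lost its call without Sirt6 cKO replicate 2 (0.61, adjusted p = 0.0584). Map3k7, Ikbkb and Ikbkg did not pass the test. Map3k7, the kinase of the complex, had a log2 fold change of -0.21 (-0.54 to 0.12, edgeR adjusted p = 0.255). Ikbkb, the catalytic IkB kinase, had 1929, 1904 and 1811 normalized counts in the WT samples and 2161, 2319 and 2188 in Sirt6 cKO, a difference of 0.24 on the log2 scale (-0.03 to 0.51, edgeR adjusted p = 0.126). Ikbkg, the regulatory subunit of the kinase, had a log2 fold change of -0.23 (-0.63 to 0.17, edgeR adjusted p = 0.315) and of -0.047 without Sirt6 cKO replicate 3, and it shares 418 exonic bases with G6pdx on the other strand, which had -0.97. Without WT replicate 1, Map3k7 (-0.33, adjusted p = 0.0109) and Ikbkb (0.26, adjusted p = 0.0382) passed. Tab3, the close relative of Tab2, had 148, 442 and 404 normalized counts in the WT samples and 383, 552 and 565 in Sirt6 cKO, ranges that overlapped. Its log2 fold change of 0.59 (edgeR adjusted p = 0.206) was 0.70 with the replicate block (adjusted p = 0.0172) and 0.24 without WT replicate 1.

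**Figure D2:**
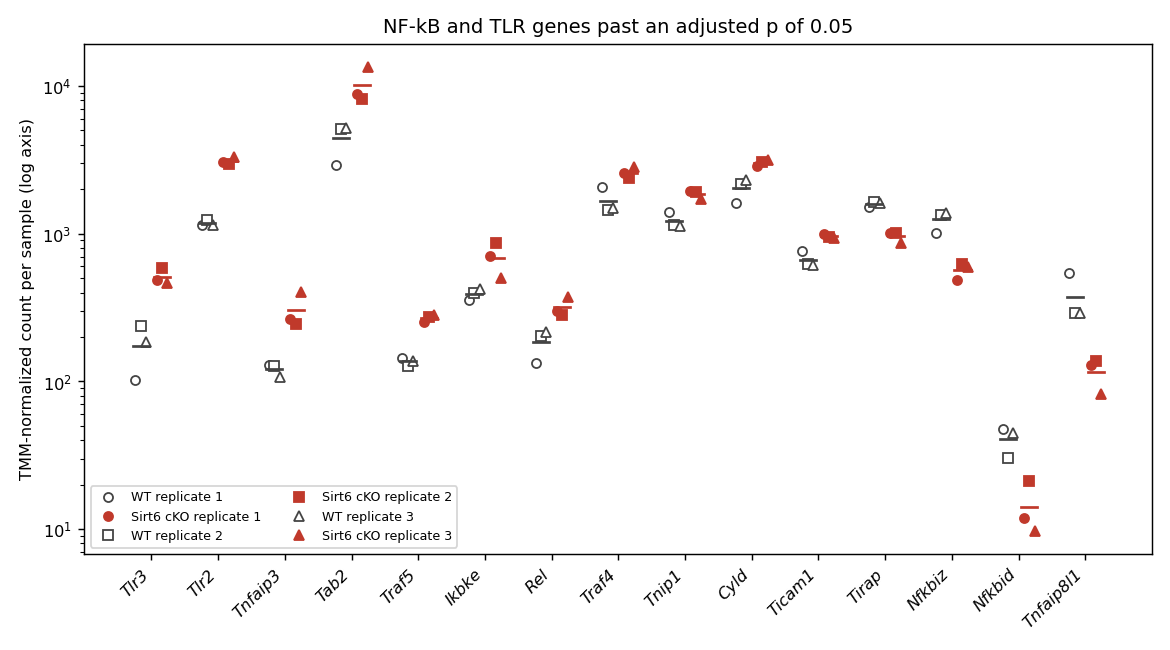
TMM-normalized count in each sample (log axis) of the 15 genes called at an adjusted p under 0.05, ordered by fold change. Open grey symbols are WT, filled red symbols are Sirt6 cKO, the symbol shape gives the replicate and the bars are the means; in all 15 genes the genotypes do not overlap, and WT replicate 1 stands away from the other WT samples for Tab2, Tlr3, Tnfaip8l1, Rel, Traf4, Nfkbiz, Cyld, Ticam1 and Tnip1.

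The transcription factors analysed were Rel and Nfkb1. Rel encodes c-Rel, and had 133, 204 and 216 normalized counts in the WT samples and 299, 283 and 374 in Sirt6 cKO. It rose by 0.79 on the log2 scale (SE 0.23, edgeR adjusted p = 0.0205), with no overlap of the genotypes, and without Sirt6 cKO replicate 3 the change was 0.67 (adjusted p = 0.0666). Nfkb1, which encodes the p105 precursor of the p50 subunit, was expressed at a far higher level. Its counts of 5114, 4893 and 4873 in WT and 4202, 4252 and 4414 in Sirt6 cKO also did not overlap, but the log2 difference of -0.21 (SE 0.11, edgeR adjusted p = 0.162) did not pass the test.

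Of the 5 genes of the IkB family and related inhibitors, 2 fell (Nfkbiz and Nfkbid; 40%, beside 24.3% of all genes), none rose and 3 did not pass the test. Nfkbiz (ENSMUSG00000035356, chromosome 16, 55811375 to 55838899, minus strand) encodes IkB-zeta, a nuclear partner of p50 that helps switch on late inflammatory genes. It had 1016, 1349 and 1388 normalized counts in the WT samples and 489, 621 and 599.7 in Sirt6 cKO. All knockout samples lay far below all WT samples (log2 fold change -1.13, SE 0.17, edgeR adjusted p = 0.0011). Nfkbid (ENSMUSG00000036931, chromosome 7, 30421732 to 30428746, plus strand) encodes the related nuclear protein IkBNS. Its raw counts were only 40, 31 and 47 in WT and 12, 22 and 10 in Sirt6 cKO. At these counts the log2 fold change of -1.51 has a wide 95% interval, -2.46 to -0.57 (edgeR adjusted p = 0.0167). The call was lost without WT replicate 3, Sirt6 cKO replicate 1 or Sirt6 cKO replicate 3 (-1.43 to -1.29, adjusted p from 0.0521 to 0.0655). Nfkbib encodes IkB-beta, a cytoplasmic inhibitor, and its log2 fold change of -0.31 (-0.72 to 0.10) came with overlapping ranges (edgeR adjusted p = 0.182) and was -0.13 without WT replicate 1. Nfkbil1, an IkB-like gene, also overlapped between the genotypes (-0.26, edgeR adjusted p = 0.270, and -0.045 without WT replicate 1). Nkiras2, a small GTPase-like protein that slows IkB degradation, had 1782, 1189 and 1231 normalized counts in the WT samples and 1992, 1992 and 1736 in Sirt6 cKO. Its log2 fold change of 0.45 did not pass (edgeR adjusted p = 0.0682), but did with the replicate block (0.47, adjusted p = 0.0314) and without WT replicate 1 (0.66, adjusted p = 0.00101). It shares 287 exonic bases with Dnajc7 on the other strand, which had a log2 fold change of 0.19.

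Of the 6 ubiquitin and RNA-decay regulators, 3 rose (50%, beside 22.5% of all genes) and none fell. Tnfaip3 (ENSMUSG00000019850, chromosome 10, 19000910 to 19015657, minus strand) encodes a ubiquitin-editing enzyme that stops TNF and Toll-like receptor signaling and is itself a target of NF-kB. It had 129, 127 and 108 normalized counts in the WT samples and 264, 245 and 403 in Sirt6 cKO. The WT samples lay close together and Sirt6 cKO replicate 3 was the highest (log2 fold change 1.33, SE 0.24, edgeR adjusted p = 0.00232). Tnip1 encodes a binding partner of this enzyme. It rose from 1406, 1153 and 1125 to 1961, 1926 and 1724 normalized counts (log2 fold change 0.61, SE 0.14, edgeR adjusted p = 0.00813). Cyld, a deubiquitinase that takes chains off Traf proteins and Ikbkg, had 1614, 2176 and 2305 in WT and 2865, 3067 and 3157 in Sirt6 cKO. In both genes the genotypes were separate. Cyld had a log2 fold change of 0.58 (SE 0.16, edgeR adjusted p = 0.0167), which lost its call without Sirt6 cKO replicate 2 (0.57, adjusted p = 0.0562). Among the other 3 genes, Rnf31, the catalytic subunit of the linear ubiquitin ligase, had 707, 655 and 639 normalized counts in the WT samples and 887, 895 and 776 in Sirt6 cKO. It was separate between genotypes but did not pass (log2 fold change 0.35, edgeR adjusted p = 0.0599), and passed without WT replicate 1 (0.40, adjusted p = 0.0205) and without Sirt6 cKO replicate 3 (0.43, adjusted p = 0.0428). Part of its exons is shared with Irf9 on the same strand, whose log2 fold change was 0.75. Otulin and Zc3h12a did not pass the test in the main comparison or in any alternative.

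Of the TNF-induced genes outside these roles, Tnfaip8l1 (ENSMUSG00000044469, chromosome 17, 56162477 to 56173955, plus strand) fell. It belongs to the TNFAIP8 family of lipid-binding proteins, and had 545, 292 and 290.2 normalized counts in the WT samples and 130.1, 137 and 81.6 in Sirt6 cKO. WT replicate 1 was far above the other WT samples. The log2 fold change was -1.69 (SE 0.31, edgeR adjusted p = 0.00271), and -1.32 without that library. This was the lowest value of the 41 with all samples, but not without WT replicate 1 or Sirt6 cKO replicate 2, where Nfkbid was lower (-1.39 and -1.91, against -1.32 and -1.82). The row shares 0.526 of its joint span with the annotated gene, close to the minimum of 0.5. Its name is therefore less certain than most others, as is that of Card6 (0.565). Tnfaip1, among the most abundant of the 41, had a log2 fold change of -0.15 (-0.44 to 0.13), and -0.088 without WT replicate 1.

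Levels were compared between genes on the scale of RPKM, that is, normalized counts scaled to library size and to exon length in kb. In WT the highest were Card19 (58.5 ± 15.9 RPKM), Tnfaip1 (53.6 ± 4.08), Otulin (42.5 ± 9.73) and Nfkb1 (36.1 ± 0.969; SD, n = 3 each). Neighbours in this order overlap within 1 SD. Tab2 had 25.1 ± 7.40 RPKM in WT and 57.3 ± 16.3 in Sirt6 cKO, and its mean moved from rank 7 to rank 1 of the 41. In Sirt6 cKO it overlapped within 1 SD with Tnfaip1 (48.2 ± 3.10 RPKM) and Card19 (44.95 ± 4.34), and Sirt6 cKO replicate 3 was its highest sample. Tlr2 moved from rank 17 (13.6 ± 0.625 RPKM) to rank 4 (36.0 ± 2.21). The lowest levels in WT were those of Tnfaip3 (0.583 ± 0.0571 RPKM) and Nfkbid (0.606 ± 0.139), which do not differ beyond their spread. In Sirt6 cKO, Tnfaip3 had 1.46 ± 0.415 RPKM and Nfkbid 0.210 ± 0.0894.

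**Figure D3:**
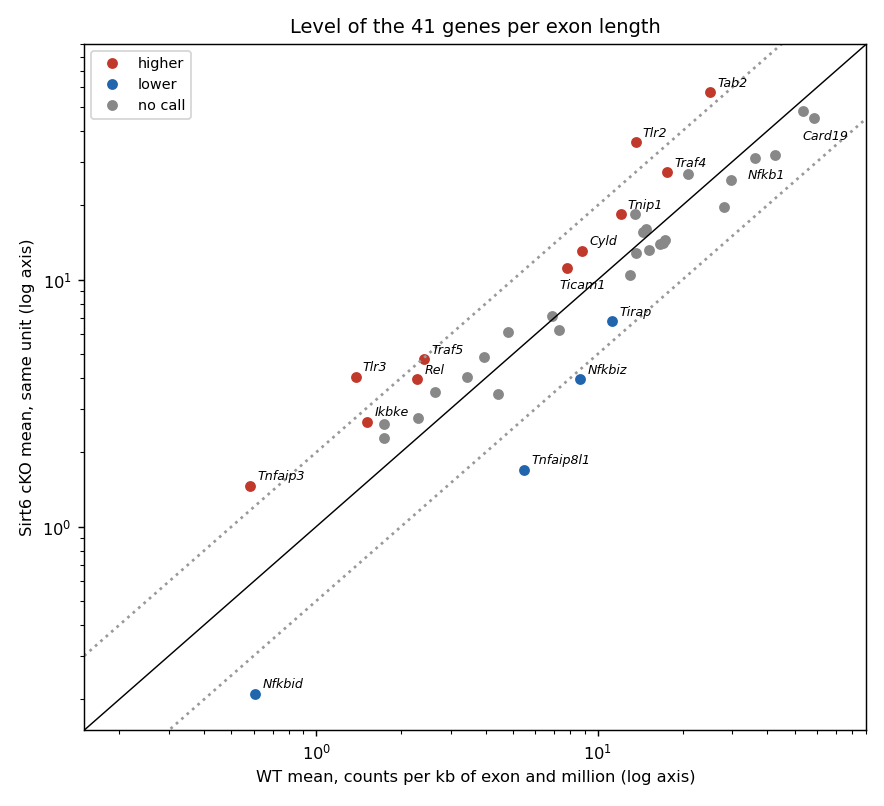
Mean level of the 41 genes in WT (x) and Sirt6 cKO (y), on the RPKM scale, both axes log; the solid line marks equal levels and the dotted lines a fold of 2 and 0.5. Tlr2 and Tab2 lie above the upper dotted line at high levels and Tnfaip3 and Tlr3 at low levels, while most grey genes with no call lie close to the solid line.

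The 26 genes with no call had log2 fold changes from -0.51 to 0.59, with a median of -0.12. Across the 41 genes, the log2 fold change was related to exon length with a Spearman rho of 0.38 (n = 41 genes, which share the same 6 libraries). It was 0.24 without WT replicate 1, and over all genes tested 0.11 and 0.058. Many of the rows tested have counts shifted against the identifiers, so their exon lengths are not those of the genes counted. The values for the 41 genes and for all genes can therefore not be compared.

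**Figure D4:**
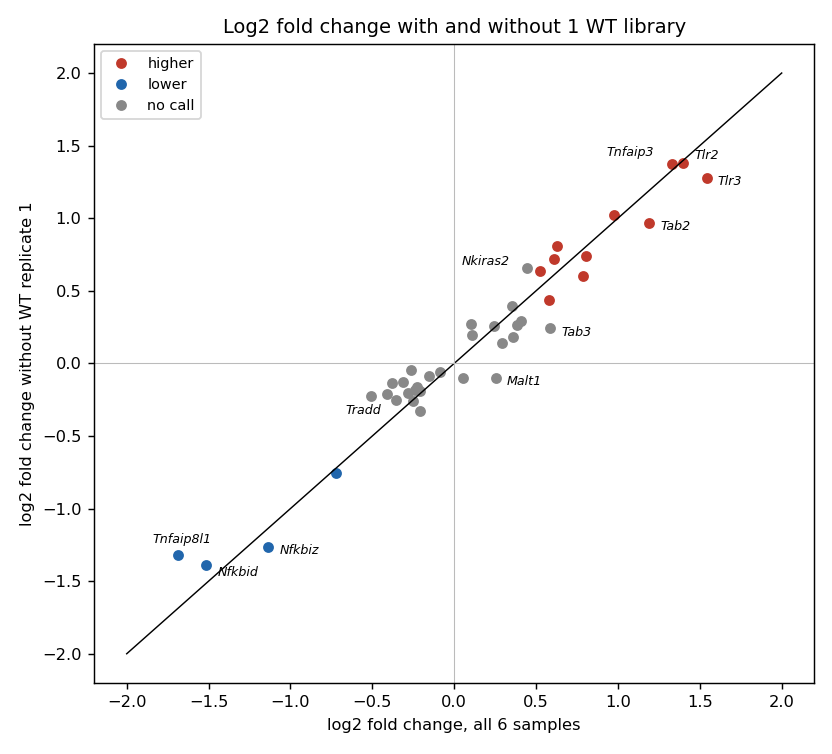
Log2 fold change of the 41 genes with all 6 samples (x) and without WT replicate 1 (y), with colours for the call in all 6 samples and a line where both are equal. The 15 called genes stay on their side of 0, Tlr3, Tab2 and Tnfaip8l1 move towards 0, and Malt1 and Ripk2, which had no call, change sign.

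Whether genes that NF-kB controls moved along with the pathway was read from a list of 71 target genes, of which 23 could be analysed. Of these, 4 rose (17.4%), beside 22.5% of all genes, and 9 fell (39.1%), beside 24.3%, with a median log2 fold change of -0.43. The chemokine Ccl2, which draws monocytes, had 4463, 5174 and 4439 normalized counts in the WT samples and 318, 296 and 359 in Sirt6 cKO. Its log2 fold change, the lowest of the 23 genes analysed, was -3.85 (SE 0.15, edgeR adjusted p = 2.49e-06). The chemokine Cxcl10 had 53.8, 45.9 and 51.4 in WT and 12.8, 5.75 and 7.78 in Sirt6 cKO, a log2 fold change of -2.51 (edgeR adjusted p = 0.00131). Timp1, an inhibitor of matrix metalloproteinases, went from 3098 ± 489 to 545 ± 129 (SD, n = 3; log2 fold change -2.51, edgeR adjusted p = 4.0e-05). Also past a fold of 0.5 were the detoxifying enzyme Nqo1 (-1.70), the stress-response gene Ier3 (-1.45), the survival gene Bcl2l1 (-1.22) and the transcription factor Nfatc1 (-1.07). Nfatc1 ran from -1.12 to -0.984 over the alternatives, so it was not past this fold in all of them. In all 7 genes the genotypes did not overlap. Of the other chemokines of the list, Cxcl1 (-0.43), Cxcl5 (-0.0012) and Ccl5 (-1.34), named after their values were seen, had no call. Tap1, a peptide transporter for antigen presentation, rose from 692 ± 90.03 to 1399 ± 64.4 (SD, n = 3; log2 fold change 1.02, edgeR adjusted p = 0.000739). Over the alternatives its log2 fold change ran from 0.959 to 1.13, so it was not above a fold of 2 in all of them. The other 3 that rose, Csf1 (0.76), Irf1 (0.52) and Tgm2 (0.47), stayed under a fold of 2. The summed normalized count of the 23 genes overlapped between the genotypes, with 52630 to 58350 in WT and 41800 to 60980 in Sirt6 cKO. Csf1 was the largest part of it, with 12680, 11470 and 12640 in WT and 17790, 15270 and 29270 in Sirt6 cKO. Without Csf1 the sums did not overlap, and every Sirt6 cKO sample was lower than every WT sample. The number of target genes that rose was 2 without WT replicate 2, without WT replicate 3 or without Sirt6 cKO replicate 1. The share of all genes that rose was then 20.3%, 18.3% and 15.8%.

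A second list of 45 genes held other receptors, ligands, receptor chaperones and ubiquitin factors of the pathway, and 18 could be analysed. Of these 4 rose (22.2%, beside 22.5% of all genes) and 4 fell (22.2%, beside 24.3%), with a median log2 fold change of -0.06. Hsp90b1, a chaperone that many but not all Toll-like receptors need to fold, had 14620, 24850 and 24530 normalized counts in the WT samples and 47910, 53850 and 44260 in Sirt6 cKO. It was higher in every knockout sample, lowest in WT replicate 1, and its log2 fold change was 1.19 (SE 0.21, edgeR adjusted p = 0.002). Il1rn, the interleukin-1 receptor antagonist, had 153, 197 and 148 in WT and 58.2, 22.0 and 52.5 in Sirt6 cKO. Its log2 fold change was -1.91 (SE 0.35, edgeR adjusted p = 0.0027), with no overlap.

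**Figure D5:**
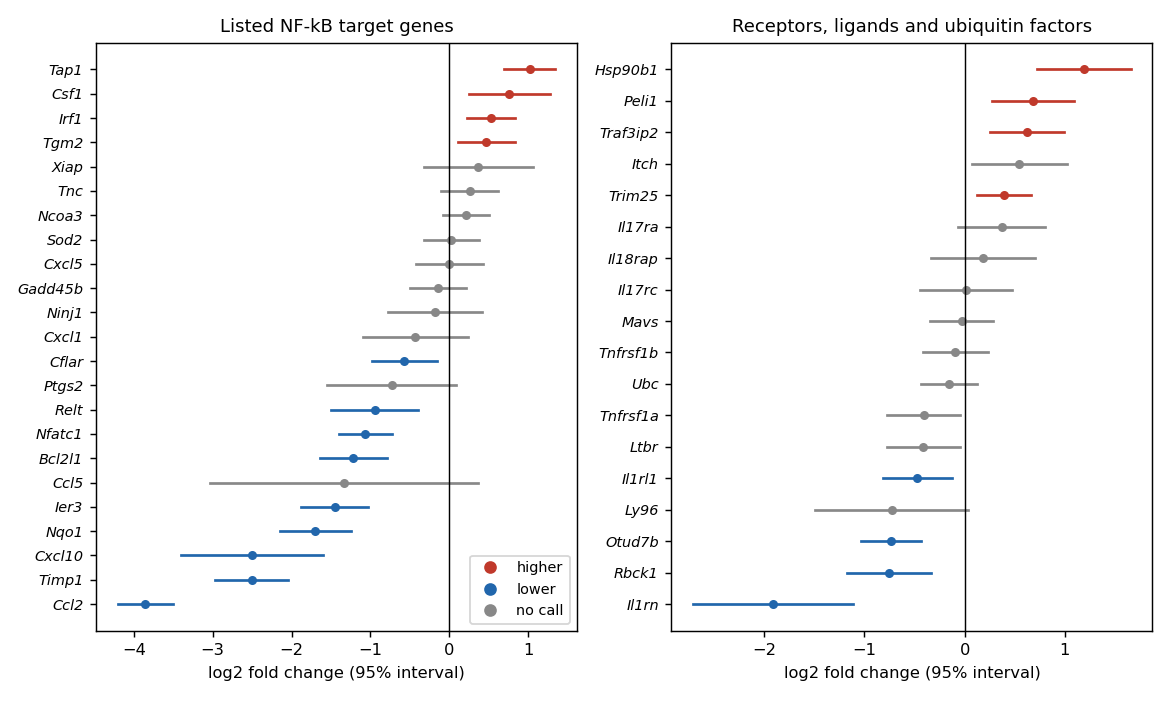
Log2 fold change with 95% interval of the 23 NF-kB target genes (left) and the 18 receptor, ligand and ubiquitin genes (right) that could be analysed. Among the targets 9 blue genes fell, with Ccl2 at -3.85, and 4 red genes rose, and in the right panel 4 rose and 4 fell.

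Markers of other cells were read beside these values. In bulk samples, fewer cells of a type and less RNA per cell cannot be told apart. Of 18 macrophage and leukocyte markers only Cd68 could be analysed. It had 49.0, 48.8 and 43.8 normalized counts in the WT samples and 5.91, 49.8 and 41.8 in Sirt6 cKO, so it was low in 1 knockout sample and level in the other samples. Of the 5 chondrocyte markers 4 rose (80%, beside 22.5% of all genes) and none fell, while Col9a3 had no call but was lower in every Sirt6 cKO sample (-0.53, edgeR adjusted p = 0.0756). Comp went from 13.7 to 26.6 normalized counts in WT to between 177 and 308 in Sirt6 cKO, and Col11a1 from 171 to 224 to between 3029 and 3468. Of the 9 synovial fibroblast markers 4 rose (Dcn, Lum, Pdgfra and Col1a1; 44.4%, beside 22.5% of all genes) and 2 fell (Vim and Cd34; 22.2%, beside 24.3%). Pdpn had no call but was lower in every Sirt6 cKO sample (-0.36, edgeR adjusted p = 0.056), and Thy1 and Has1 had no call and overlapping ranges. Dcn went from 2473 to 4347 in WT to between 34260 and 36240 in Sirt6 cKO, Col1a1 from 113000 to 118100 to between 272300 and 311500, Vim from 144300 to 181300 to between 40420 and 50900, and Lum was at 0 in WT replicate 1. Runx2 was the only osteoblast marker analysed, with 1362 to 2049 in WT and 2010 to 2278 in Sirt6 cKO, and endothelial and osteoclast markers were not analysed here. The part of these markers in the changes of the pathway genes was not tested.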

How the data were processed

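The authors deposited 1 table of raw counts, 1 row per Ensembl gene, that also lists the exons and their summed length. The submitters' processing notes name cutadapt, HISAT2 2.0.5, StringTie and a human genome build, hg19, whereas the deposited positions are those of mouse GRCm38. The study describes strand-specific libraries, with a NEBNext Ultra II kit in its methods and TruSeq and KAPA Stranded kits in the labels. The counter and the strand setting used in counting are not given in the sources used here, so reads of genes that overlap on opposite strands may be counted for either.

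Rows were named by position, from an overlap of at least 0.5 of the joint span with a gene of RefSeq on GRCm38.p6 (10609 of 11659 rows). Exon length correlated with the count of the same row at Spearman 0.25 and 0.295 in both identifier ranges used. Between the ranges it was -0.0024 for the same row and 0.266 for the count 1 row on, and above them 0.372 for the same row and 0.503 for the count 3 rows up. Counts outside the ranges entered the library sizes and the adjustment of p-values. No reference sequences were used.

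All 6 samples were fitted in edgeR 4.0.16 (R 4.3.3) with TMM normalization, filterByExpr and the quasi-likelihood test, with genotype as the only term and Benjamini-Hochberg adjustment over 11246 genes. The SE is the log2 fold change divided by the square root of F. With 3 against 3 samples an exact permutation test could not give a p below 0.1, so none was used. For samples with the same replicate number in the labels, deviations from the genotype mean correlated at 0.262, 0.104 and 0.136. Pairs with different numbers had -0.227 to 0.062. No label says that equal numbers mark a pair. Values with the replicate number as a block are given where they change a call. Genes past the adjusted p and a fold of 2 or 0.5 are named with the count in every sample, those with smaller changes with level and fold change, and of the others the core of the pathway. Members and lists were chosen with earlier results of these data known. Alternatives were DESeq2 1.42.0, limma-voom (limma 3.58.1), RLE and upper-quartile normalization, library totals without a factor, a filter removed or set to 10 counts in each sample, the replicate block, the rows of the ranges alone, and each sample left out. Precision is limited by 3 samples per genotype.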

Additional observations from a re-analysis of the deposited data

How the results depend on the processing

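Over 15 alternatives the number of pathway genes that rose was 8 to 14 and the number that fell 3 to 5. The share of all genes tested moved too, from 15.8% to 27.5% for genes that rose and from 16.9% to 27.8% for genes that fell. Without Sirt6 cKO replicate 2, 8 pathway genes rose, beside 16.4% of all genes, and without WT replicate 1, 14 did, beside 27.5%. Of the 11 genes that rose, 6 kept the call in every alternative, as did 3 of the 4 that fell, and 19 of the 26 with no call were never called. Leaving out 1 sample at a time gave 2 to 4 NF-kB target genes that rose, with 2 without WT replicate 2, WT replicate 3 or Sirt6 cKO replicate 1. Among genes with no call, Malt1 ran from -0.099 on the log2 scale without WT replicate 1 to 0.61 without WT replicate 3, and Ripk2 from -0.10 to 0.17 without the same libraries, with -0.0079 without Sirt6 cKO replicate 2. The cause was not tested. With the replicate block, 13 pathway genes rose and 5 fell, beside 25.6% and 25.5% of all genes. Nkiras2 (0.47), Tab3 (0.70) and Tradd (-0.50) passed there, and no other call of the 41 genes changed. In the same fit 11 target genes fell. Rnf31 and Nkiras2 also passed with DESeq2 (0.36 and 0.45), upper-quartile normalization (0.43 and 0.52) and total counts alone (0.41 and 0.51), and Rnf31 when only the rows of the identifier ranges were fitted (0.36). The median log2 fold change of all genes was 0.079 with upper-quartile normalization.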
